A study of Caenorhabditis elegans with 3 samples.

Results

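The peaks described here are those in and around elt-3, the gene that encodes the protein under study. The rule for members used the position of the summit and no signal. Every entry of the ce11 peak lists counted as a member when its summit, the base at which the authors' caller placed the peak, lay within elt-3 or no more than 20000 bp from either end of it (chrX:13934874-13941216, plus strand, WBcel235, the assembly also called ce11). The list thresholded by the irreproducible discovery rate (IDR), a measure of how well ranked peaks repeat between replicates, held 7 members of its 1202 peaks. A place in this list does not mean an entry in both replicates. Replicate 1 overlapped 100% of its peaks and replicate 2 overlapped 9.73%. The list called on both replicates together, the pooled list, held 25 of 10082, the replicate 1 list 28 of 10775 and the replicate 2 list 1 of 4080. The pooled and replicate 2 lists are described as peaks and background, the input for IDR. By the deposited −log10 q-value, q-values in the window ran up to 0.910 in the pooled list and 0.946 in the replicate 1 list. An entry outside the IDR list is therefore not by itself a binding peak. Binding of ELT-3 was mapped by ChIP-seq, which pulls a protein down from sheared chromatin and reads the DNA that comes with it. All 3 libraries came from whole L1 larvae, the first larval stage, of Caenorhabditis elegans strain OP75, genotype unc-119(ed3) III; wgIs75, labelled as pooled male and female. This line stably expresses ELT-3 with a GFP-FLAG tag at its C-terminus from an insertion that the labels describe as targeting elt-3. They formed 1 group of 2 biological replicates, and replicate 2 consisted of 2 technical libraries with 1 joint alignment.

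The strain carries elt-3 both at its place on chromosome X and in the tagged transgene. The sources used here do not give the extent or the copy number of the transgene, so reads from the chromosomal gene and from the transgene cannot be told apart at this locus. Signals, ranks and entry counts of the locus are set below beside those of other genes and peaks. What the transgene adds to them cannot be told, so these comparisons are not on equal terms. With 1 condition and no group without the transgene in the data used here, no test was made, and every value is a description. The files hold no read counts, so the depth is unknown. Replicate 2 stood apart from replicate 1 at this locus, and results are therefore given with each replicate alone in the paragraph on the replicates.

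GATA factors are zinc finger proteins that recognise short sites around the letters GATA. In C. elegans, ELT-1 specifies the epidermal fate in the embryo, and elt-3 acts after it in the differentiating epidermis that secretes the cuticle. GATA factors of several animals bind their own genes, and introns and upstream sequence are both known places for such sites. The site searched here was any of 4 words on either strand: the word AGATAA, the word AGATAG, the word TGATAA and the word TGATAG, lying wholly within the stated window. It is called a GATA site below. A match is a description of the sequence and not evidence of contact by the protein.

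The sequences at the IDR summits show where GATA sites lay and where there were none. Each of the following is 101 bases of the plus strand, from 50 bp before to 50 bp after the summit, read from the RefSeq genome of WBcel235, with GATA sites in capitals. A site on the minus strand is printed as its reverse complement, so that TGATAA appears as the letters TTATCA. Names give the place of the peak.
ekl-5 peak (chrX:13917457-13917557): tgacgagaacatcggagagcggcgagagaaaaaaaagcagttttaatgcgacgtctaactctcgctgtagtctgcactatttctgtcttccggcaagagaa
mir-47 peak (chrX:13920513-13920613): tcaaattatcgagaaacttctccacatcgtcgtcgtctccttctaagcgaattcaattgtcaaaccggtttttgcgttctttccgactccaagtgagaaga
near upstream peak (chrX:13932561-13932661): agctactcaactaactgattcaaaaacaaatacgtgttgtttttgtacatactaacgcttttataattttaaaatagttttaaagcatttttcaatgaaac
first peak of intron 2 (chrX:13936925-13937025): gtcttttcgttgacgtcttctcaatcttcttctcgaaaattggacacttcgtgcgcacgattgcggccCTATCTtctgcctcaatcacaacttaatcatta
middle peak of intron 2 (chrX:13937496-13937596): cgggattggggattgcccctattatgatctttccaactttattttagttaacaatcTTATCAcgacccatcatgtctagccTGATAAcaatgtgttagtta
last peak of intron 2 (chrX:13938084-13938184): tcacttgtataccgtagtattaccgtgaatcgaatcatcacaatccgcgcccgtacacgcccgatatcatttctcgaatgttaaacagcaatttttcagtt
intron 4 peak (chrX:13939539-13939639): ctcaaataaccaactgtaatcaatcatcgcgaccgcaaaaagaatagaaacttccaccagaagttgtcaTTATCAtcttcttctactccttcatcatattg

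The elt-3 gene spans 6343 bp and has 8 exons in its longest transcript, K02B9.4a.2. Its intron 2, of 3622 bp, is the longest of the gene, and it ends at exon 3, where a shorter transcript, K02B9.4a.1, begins. In Ensembl release 115, K02B9.4a.2 starts at the first base of the gene, K02B9.4b.1 starts 9 bp and K02B9.4a.3 starts 122 bp downstream of it, and K02B9.4a.1 starts 3869 bp downstream. K02B9.4c.1 and K02B9.4d.1 start 4466 and 4852 bp downstream. Both of them, and K02B9.4b.1 as well, start at the first coding base, so the annotation holds no 5′ UTR for these transcripts. The 3 transcripts of form a share a coding start 3952 bp into the gene. Intron 2 therefore lies inside the transcripts that begin at the 5′ end, and upstream of those that begin at exon 3 or later.

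Of the 7 IDR peaks, 4 lay in introns of elt-3 and 3 upstream of it, and none lay in an exon or downstream. Only 1.65% of the 19973 protein-coding genes held an IDR summit at all. The strongest of the 4, the middle peak of intron 2, had a signal of 131.6 and was the 18th strongest of the IDR list. It lay 2672 bp downstream of the 5′ end of the gene and 1197 bp upstream of exon 3. The first peak of intron 2 had a signal of 69.2 (rank 199) and the last a signal of 57.2 (rank 360). These summits lay 1768 and 609 bp upstream of exon 3. The intron 4 peak had a signal of 49.0 (rank 567) and lay 137 bp upstream of the first coding base of K02B9.4d.1. All 4 exceeded the median signal of the IDR list, 47.97, the intron 4 peak by the least.

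**Figure D1:**
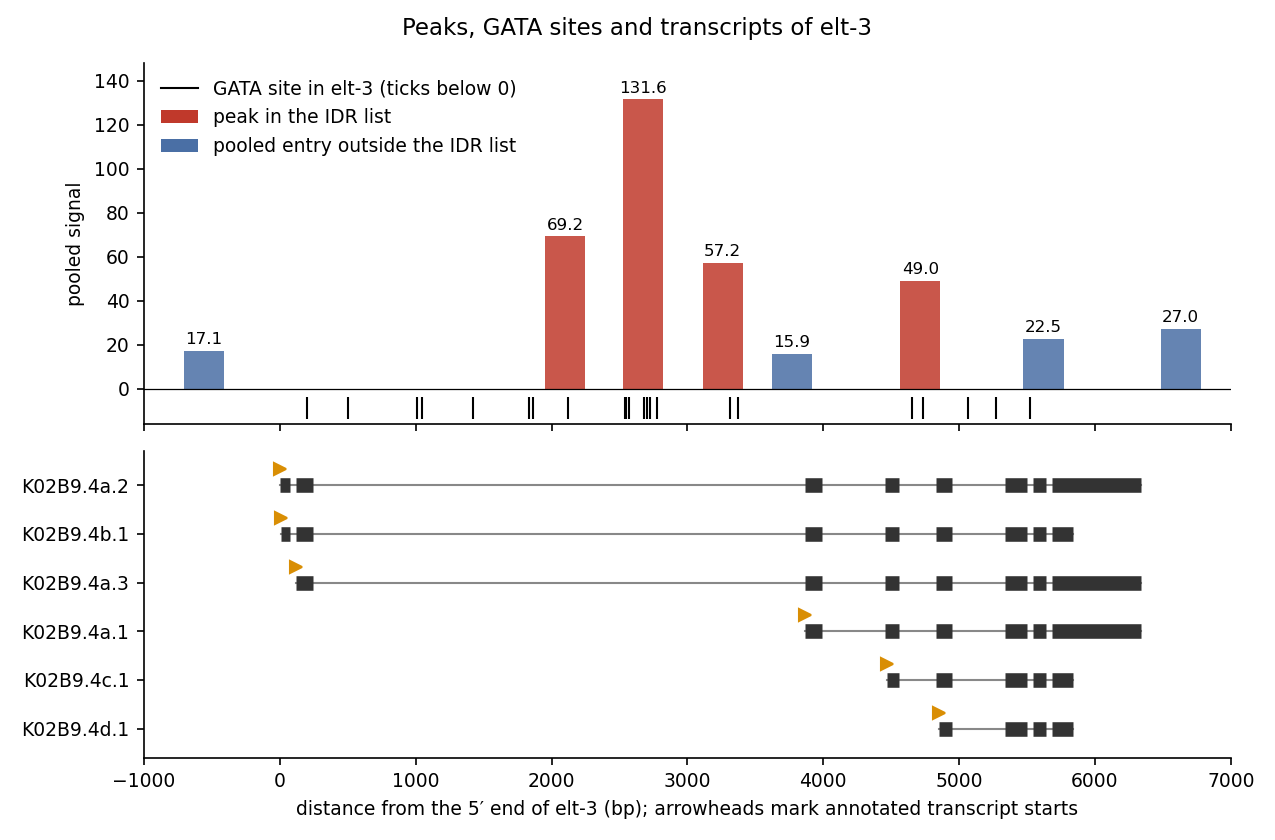
Peaks, GATA sites and transcripts of elt-3. The upper panel plots the signal of each pooled entry (bar, drawn over the width of the peak) against the distance from the 5′ end of elt-3 in bp, with GATA sites of the gene as ticks below 0; the lower panel shows the 6 annotated transcripts with exons as boxes. The IDR peaks of intron 2, with signals of 69.2, 131.6 and 57.2, stand between exon 2 and the start of K02B9.4a.1, and the entry near the 5′ end of the gene has a signal of 17.1.

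The 3 peaks of intron 2 formed a tight row. Their summits were 571 and 588 bp apart, 1159 bp from first to last, while neighbouring IDR summits across the genome had a median distance of 43807 bp. Among the 1190 runs of 3 neighbouring IDR summits on the same chromosome, this was the only one that spanned 1159 bp or less, or 0.084% of runs. Of 104828 introns of protein-coding genes, 0.253% held an IDR summit and 0.00668%, or 7 introns, held at least 3. The other 6 belonged to pkg-2 and pqn-41 with 4 each, and to nhr-31, sma-9, daf-5 and Y111B2A.12 with 3 each. Those of nhr-31, a nuclear hormone receptor gene, and of sma-9, which acts in the body size pathway, were of similar length, 3278 and 3679 bp.

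Over the whole gene, elt-3 held 4 IDR summits, or 6.31 per 10 kb, against 0.148 per 10 kb of chromosome X. In all 4 genes, 0.02% of protein-coding genes, held at least 4. The others were pkg-2, a cyclic nucleotide-dependent kinase gene, with 5, and pqn-41, which encodes a protein rich in glutamine and asparagine, and ccch-1, a zinc finger gene, with 4 each. They are longer genes, of 17294, 33613 and 13389 bp, with 1.19 to 2.99 summits per 10 kb. Among the 1613 genes whose length was within 1.25 times that of elt-3, 52 held an IDR summit and elt-3 was the only one with 4. The exons of elt-3, 1466 bp in all, held 0 IDR summits and 1 pooled summit, in exon 7.

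The 5′ end of the gene itself carried little signal. The pooled entry nearest to it lay 560 bp upstream, with a signal of 17.1 and rank 6365 of 10082, which is below the median of the pooled list, 18.5. Its q-value, from the deposited −log10 q-value, was 0.764. Another pooled entry lay 101 bp upstream of exon 3, with a signal of 15.9 and rank 8023. Neither had a GATA site within 50 bp of its summit, but anywhere in the peak the entry near the 5′ end had 2 and the other 0. These 2 entries, near the starts of K02B9.4a.2 and K02B9.4a.1, were outside the IDR list. By the cut of that list they were weaker than each IDR peak of the locus. The 3 IDR peaks of intron 2 lay 609 to 1768 bp before exon 3. Of the annotated starts, that of K02B9.4d.1 had the closest IDR summit, the intron 4 peak, though this start is a first coding base without an annotated 5′ UTR. The 2 pooled entries at the 3′ side of the gene, in exon 7 and 290 bp past the end of the gene, had signals of 22.5 and 27.05.

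Annotated non-coding RNA genes overlap the first peak of intron 2. K02B9.8 (chrX:13936988-13937259, plus strand) begins 13 bp downstream of its summit, and K02B9.7 (chrX:13936992-13937138, minus strand) lies on the opposite strand within it. The middle peak lay 408 bp upstream of the 5′ end of K02B9.7.

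Upstream of elt-3, the strongest peak stood beside a microRNA gene. The mir-47 peak had a signal of 111.0, rank 37 of the IDR list, and lay 14311 bp upstream of elt-3 and 687 bp upstream of the annotated hairpin of mir-47 (chrX:13921250-13921346, plus strand). The nearest 5′ end of a protein-coding gene was that of ekl-5, at a distance of 3392 bp. The ekl-5 peak itself had a signal of 41.2 (rank 908) and lay 336 bp upstream of ekl-5, 17367 bp from elt-3. ekl-5 was named in a genetic screen for enhancers of a Ras pathway mutant. The near upstream peak, 2263 bp before elt-3, had a signal of 36.6 (rank 1138), just above the lowest IDR signal of 35.5. Its q-value of 0.00396 was the highest of the 7, and the others had 0.000484, the lowest value in the list, which 1034 of the 1202 peaks share. It lay 1713 bp past the 5′ end of the pseudogene WBGene00010494, and its window was the poorest in G and C, 24.8% against 36.6 to 46.5% in the other 6.

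**Figure D2:**
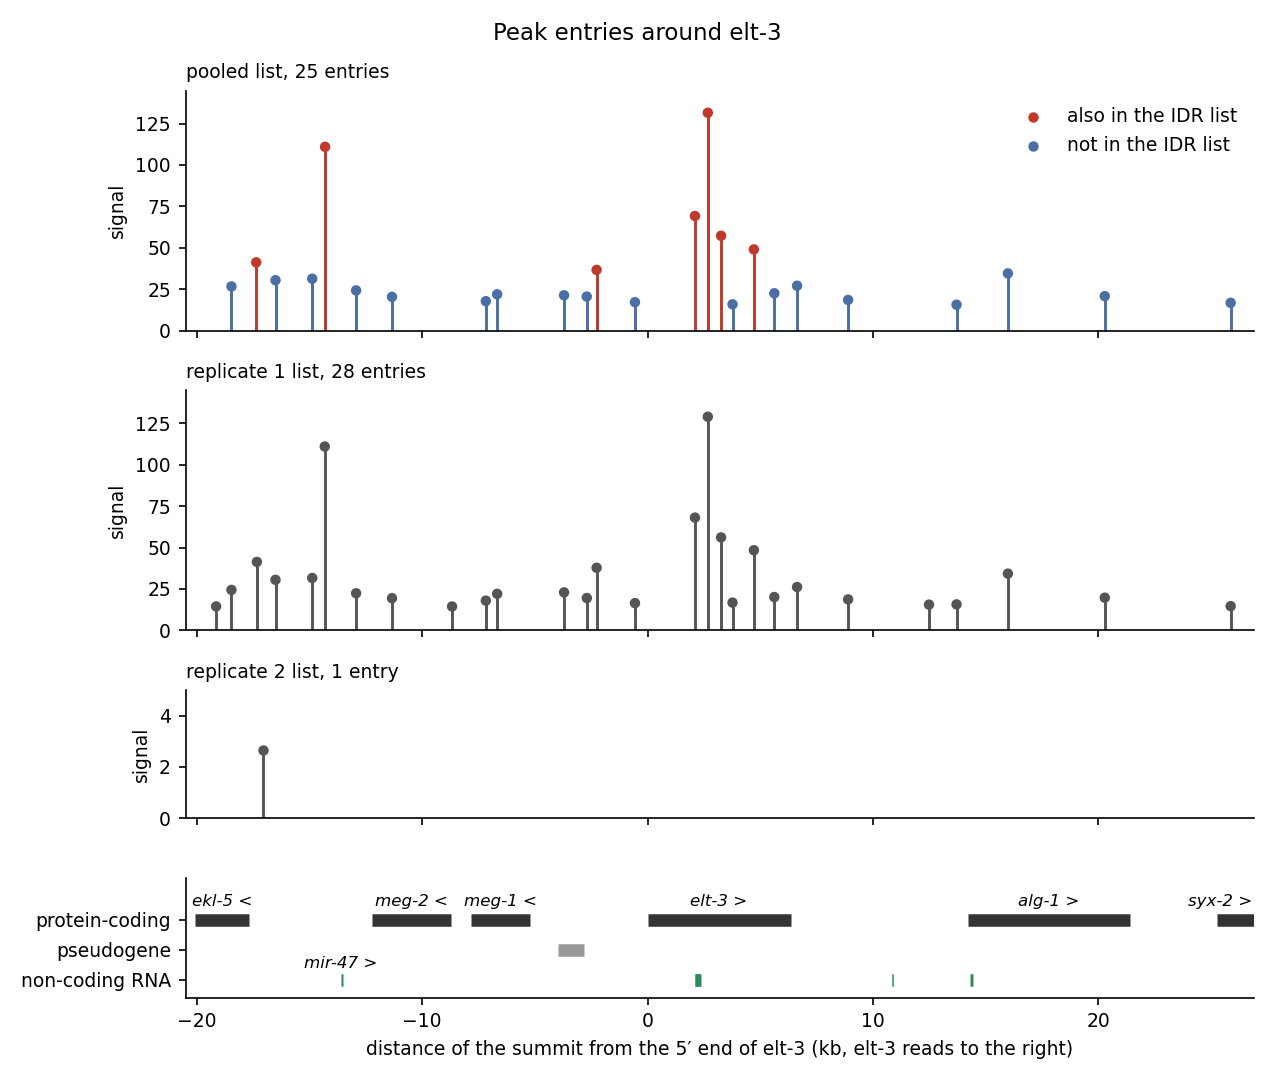
Entries of the pooled, replicate 1 and replicate 2 lists around elt-3. Each stem is 1 entry, placed by the distance of its summit from the 5′ end of elt-3 in kb and as high as its signal, whose scale is particular to each list; red marks pooled entries that are also in the IDR list, and the bottom panel shows annotated genes. The pooled and replicate 1 panels share their strongest entries, at -14311 bp and 2672 bp in the pooled list, and the replicate 2 panel has 1 entry, with a signal of 2.67.

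The neighbouring genes held only entries outside the IDR list. The 7 IDR peaks had the same ranks in the pooled list as in the IDR list. Of the pooled entries of the window outside the IDR list, 0 exceeded its lowest signal, 35.5. Entries outside that list are therefore weaker here by the cut of the list itself. The 20000 bp downstream of elt-3 had 0 IDR and 6 pooled summits, against 3 and 13 in the 20000 bp upstream. Per 10 kb these are 0 and 3 downstream and 1.5 and 6.5 upstream. Chromosome X as a whole had 0.148 IDR and 1.21 pooled summits per 10 kb, so the downstream side was above it in pooled summits. The strongest pooled entry outside the IDR list was in alg-1, which encodes an Argonaute protein of the microRNA pathway, with a signal of 34.5 (rank 1278) and 1 GATA site at its summit. meg-1 and meg-2, which encode germ granule proteins, held 2 and 1 pooled summits with signals of 17.7 to 21.9, and syx-2, a syntaxin gene, held 1 with a signal of 16.7. The 18 pooled entries of the window outside the IDR list had signals from 15.6 to 34.5, with a median of 21.0. In all, 7 of the 25 pooled entries were in the IDR list (28%), against 11.9% of all pooled entries. At the upstream edge, the outermost IDR peak inside the window was the ekl-5 peak, and the next one outside lay at -49540 bp with a signal of 43.5. The next IDR peak downstream of the window lay 33731 bp past the end of elt-3, with a signal of 41.9.

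**Figure D3:**
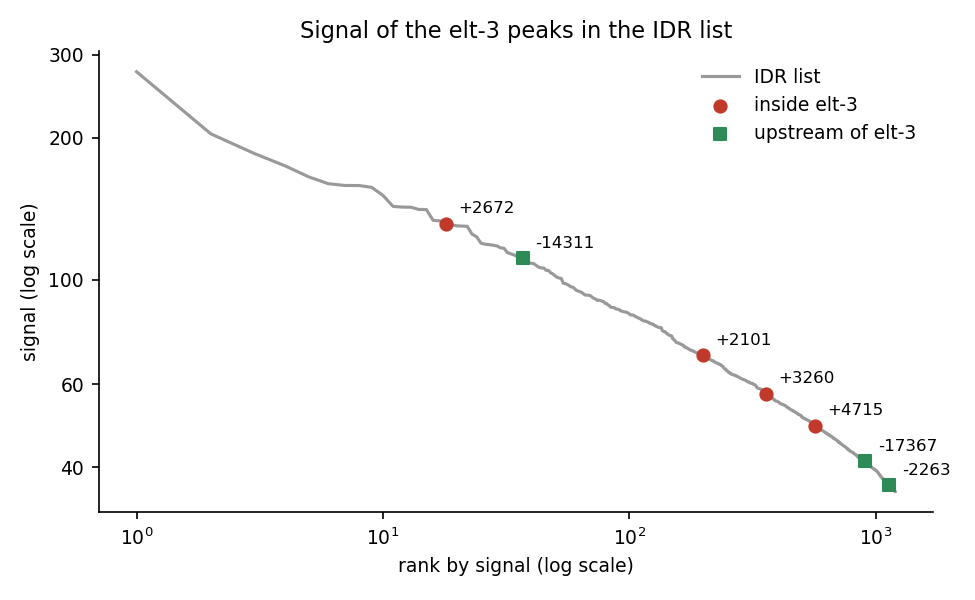
Signal against rank of all 1202 IDR peaks, both on log scales. The points mark the 7 peaks around elt-3 by the distance of their summit from its 5′ end in bp, circles for those inside the gene and squares for those upstream. The members spread over the list, from rank 18 to rank 1138.

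GATA sites were counted within 50 bp of each summit and over each whole peak. Within 50 bp of the summit, 3 of the 4 intronic peaks and 0 of the 3 upstream peaks had a site. Together these are 3 of 7 (42.9%), close to the 38.9% of all IDR peaks, so the count over the locus is no result about its peaks. Of 101-base tiles of chromosome X, 21.4% held a site, and of those of the elt-3 window 20.1%. In these windows, the first peak of intron 2 had AGATAG beginning 18 bp after the summit, and the intron 4 peak had TGATAA beginning 19 bp after it, both on the minus strand. The last peak of intron 2 had TGATAA beginning 50 bp after the summit, and 5 of its bases fall outside the window. Anywhere in the peak, all 4 intronic peaks and 1 of the 3 upstream peaks had a site. The share of all IDR peaks with a site anywhere was 65.3%, and of 296-base tiles of X 50.8%. The ekl-5 and mir-47 peaks had 0 sites in their 296 bp.

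The strongest peak held the most sites of the locus. It had 7 GATA sites in 296 bp, of which 5 read TGATAA. The whole peak is printed here because its sites lie on both sides of the summit, which is base 149 of the printed sequence.
middle peak of intron 2, whole (chrX:13937398-13937693): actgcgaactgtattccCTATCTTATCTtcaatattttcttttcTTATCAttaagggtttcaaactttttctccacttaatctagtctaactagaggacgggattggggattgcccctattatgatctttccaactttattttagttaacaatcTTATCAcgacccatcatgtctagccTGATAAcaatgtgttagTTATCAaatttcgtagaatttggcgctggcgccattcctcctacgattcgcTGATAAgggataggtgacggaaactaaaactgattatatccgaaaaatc
The first 2 sites share 1 base, which joins them into 1 run of capitals. Another site begins 22 bp after the start of the second. After a gap around the summit, 4 TGATAA sites begin 6, 31, 48 and 99 bp past it, on the minus, plus, minus and plus strand in that order. The sites nearest the summit are thus 25 and 17 bp apart, start to start. Of the 1202 IDR peaks, 0.499%, or 6 peaks with this one included, held 7 or more sites, and the most was 8. With 5 or more TGATAA there were 4 peaks, or 0.333%. The median IDR peak held 1 site, and 0.00835% of 296-base tiles of X held 7 or more.

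**Figure D4:**
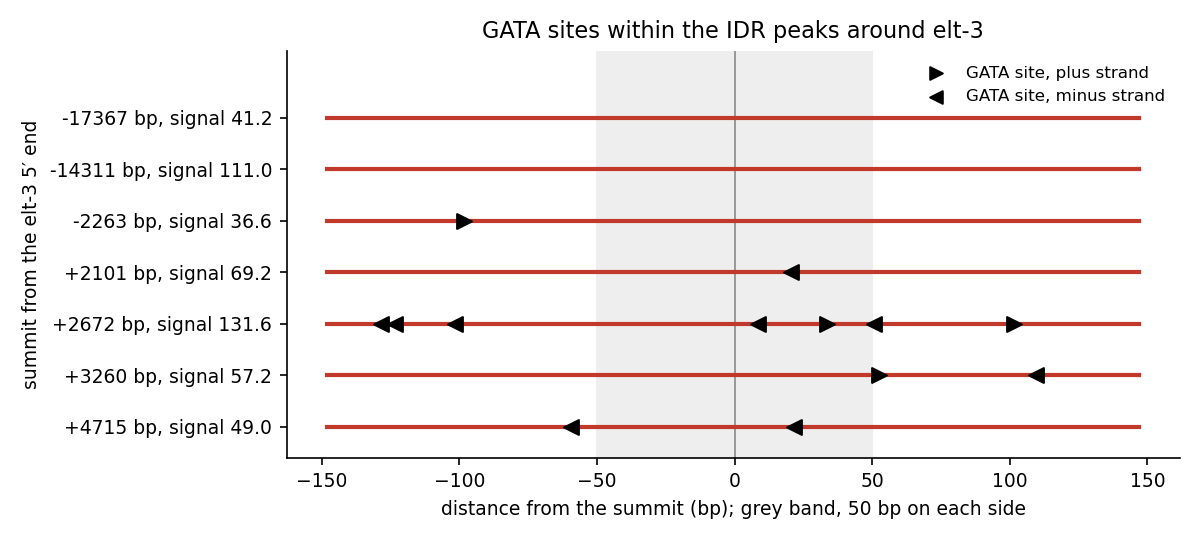
GATA sites within the 7 IDR peaks around elt-3, by distance from the summit in bp. Each red line is 1 peak, named by the distance of its summit from the 5′ end of elt-3 and its signal; arrowheads are GATA sites and point right on the plus strand and left on the minus strand, and the grey band is 50 bp on each side. The peak at 2672 bp has 7 sites, and the peaks at -17367 and -14311 bp have 0.

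The elt-3 gene holds 22 GATA sites, 3.47 per kb, against 2.57 per kb on chromosome X. Intron 2 has 16 of them, or 4.42 per kb. The 4 IDR peaks cover 18.7% of the gene and hold 12 of its 22 sites, 10.1 per kb. The middle peak of intron 2 alone holds 7 of these 12. In intron 2, 6 of the 16 sites lay outside its IDR peaks. In the flanks, 1 of 103 sites was inside an IDR peak. IDR summits were also sparser there, 1.5 per 10 kb upstream and 0 downstream against 6.31 in the gene. The site counts of gene and flanks are therefore not on equal terms. TGATAA made up 14 of the 22 sites of the gene and 9 of the 13 sites in the IDR peaks of the locus, against 43.2% of the GATA sites of chromosome X. Of these 9, 5 lie in the middle peak of intron 2. The share of TGATAA over all IDR peaks is not given here, so nothing particular to the locus is read from this.

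The replicates differed in what they showed of this locus. Replicate 1 had an entry at each of the 7 IDR peaks, as it did at 100% of all IDR peaks. Its signals were 68.1, 129.0, 56.1 and 48.4 at the intronic peaks, in order along the gene. At the ekl-5, mir-47 and near upstream peaks they were 41.3, 111.0 and 37.8. As deposited, these values were 0.981 to 1.03 times those of the pooled list, though each list has a signal scale of its own. The pooled signals are those of the IDR list itself, and the pooled list contains the reads of replicate 1, so this closeness is no independent repeat. Replicate 1 summits were at the same base as the pooled ones for 5 of the 7 peaks, and 14 and 30 bp away at the mir-47 and ekl-5 peaks. All 25 pooled entries were overlapped by replicate 1, against 93.8% of all pooled entries. The 3 further entries of replicate 1 had signals of 14.4 to 15.5.

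Replicate 2 had no entry in elt-3. Its 1 entry in the window (chrX:13917523-13918118) was 596 bp wide, as were all 4055 nuclear entries of that list. The signal was 2.67, rank 2007 among all 4080 entries with the mitochondrial ones included, and near the nuclear median of 2.65. This entry shared 132 bp with the ekl-5 peak, and its summit lay 314 bp away from that of the peak. So 1 of 7 IDR peaks was overlapped (14.3%), against 9.73% of all IDR peaks. The replicate 2 summit nearest to the middle peak of intron 2 was 19725 bp away. Around protein-coding genes, windows of this kind held a median of 2 replicate 2 summits, and 77.2% held at least 1. The 1202 strongest peaks of replicate 1 alone gave 7 peaks in the window, 4 in the gene and 3 with a GATA site. The 1202 strongest of replicate 2 gave 0 in each case. Of the 2 biological replicates, 1 showed the row of peaks in elt-3. The signals of the replicate lists are not on 1 scale, so their heights were not compared.

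Compared with the surroundings of other genes, those of elt-3 were among the densest in entries, and what the transgene adds to these counts cannot be told. In windows of this kind, 13 of 19973 protein-coding genes (0.0651%) had at least 7 IDR summits, and 0 had more than 7. Of these 13, meg-1 and meg-2 are neighbours of elt-3 and share its peaks. Windows also overlap among K08B12.3, dmd-7 and mrck-1, among F45D3.2, F45D3.3 and F45D3.4, and among R03E9.2, mdl-1 and abts-4. The 13 genes are therefore not 13 separate places in the genome. For pooled entries, which include background, 2 genes (0.01%) had 25 or more, against a median of 4. These were elt-3 with 25 and egl-27 with 28. egl-27, which encodes a chromatin protein with a GATA-type zinc finger, is 12901 bp long, so its window is wider, 52901 against 46343 bp. Its 2 IDR summits inside the gene had signals of 77.6 and 56.1.

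**Figure D5:**
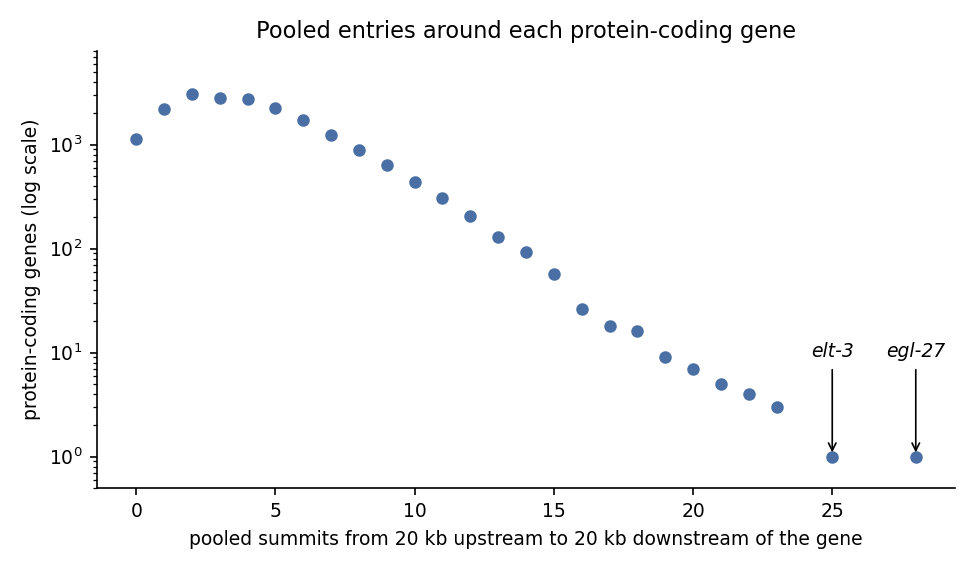
Number of protein-coding genes (log scale) by the count of pooled summits in the gene and 20000 bp on either side. Each point is the number of genes with that count. The genes elt-3, with 25, and egl-27, with 28, are marked.

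Among 11 other genes of GATA factors and related proteins, egl-27 stood nearest to elt-3 in these counts. It had 2 IDR and 10 pooled summits in the gene, against 4 and 6 in elt-3, and 6 and 28 in its window, against 7 and 25. It was the only one of the 11 with an IDR summit in the gene, which 1.65% of all protein-coding genes had. elt-1, the upstream epidermal factor, had 0 IDR and 2 pooled summits in its window. egl-18 and elt-6, neighbouring genes that act in the seam cells of the epidermis, had 0 IDR summits, with 2 and 0 pooled ones. In the endoderm, end-1, end-3, elt-7 and elt-2, with the elt-2 relative elt-4, had 0 IDR and 1 to 5 pooled summits, and med-1 and med-2, which act before end-1 and end-3, had 1 and 2 IDR summits in the window and 0 in the gene. Since 35.5% of all genes had an IDR summit in their window, 3 of 11 is near the background.

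Of 9 other regulators of the epidermis, 3 had an IDR summit in the gene, each with 1, and 5 had one in the window. Over all protein-coding genes these shares were 1.65% and 35.5%, and with 9 genes nothing is read from the difference. The 3 with a summit in the gene were lin-26, a zinc finger gene needed for epidermal fate, with a signal of 40.5, nhr-23, a nuclear receptor gene of the molting cycle, with 55.1, and blmp-1, a zinc finger repressor gene, with 40.8. nhr-25 and grh-1 had 1 in the window, and rnt-1, bro-1, lin-29 and ceh-16 had 0. The highest count in a window was 2 IDR summits, at lin-26, and 11 pooled summits, at nhr-23, against 7 and 25 at elt-3. unc-119, a marker gene that lines of this kind usually carry in a working copy, had 0 entries of any list in the gene, and 0 IDR and 5 pooled summits in its window.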

How the data were processed

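The members and gene lists were chosen with earlier results of these data known. Peaks were deposited in the narrowPeak layout. Per the deposited records of derived files, 1 list came from replicate 1, 1 from the joint alignment of replicate 2, 1 from both, and the IDR list from these 3. Each deposited peak has a signal, on a scale of its own per list, and a −log10 q-value that the authors computed. Which aligner and caller were used is not given in the sources used here, and the control named in the labels was not analysed here. ce11 lists were used, and 0 peaks reached past a chromosome end of WBcel235. The summit is the start plus the offset in the file, written 1-based. Genes came from Ensembl release 115 and sequence from RefSeq. An intron is sequence outside all exons of a gene. Overlap meant at least 1 shared bp. Ranks are by signal within a whole list, and the 25 mitochondrial entries were left out after ranking. Depth is unknown, so no interval was given for signals, and counts come with no test. Word search and window counts were tested on simulated data (Python 3.11.15, pandas 2.3.3). The genes named were elt-3, genes in its window, fixed lists of GATA factors and epidermal regulators, unc-119, and genes with as many summits. Holders of introns with 3 summits were named after their values were seen. Alternatives covered window width, list, overlap and site rules.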

Additional observations from a re-analysis of the deposited data

How the results depend on the processing

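The counts were recomputed with other windows, lists, overlap rules and site rules. The number of IDR peaks in the window ran from 5 to 9 over window widths, the stronger part of the list and overlap, and with 1 replicate alone from 0 (replicate 2) to 7 (replicate 1). The number inside elt-3 was 4 except with replicate 2 alone, so leaving out 1 replicate gave 0 to 4. Peaks with a GATA site numbered 2 with TGATAA alone as the word, and 3 and 4 within 25 and 100 bp of the summit. They numbered 5 with GATA alone as the word. No share over all IDR peaks is given here for these words and distances, so nothing is read from these counts. With sites anywhere in the peak there were 5, against 65.3% of all IDR peaks. With 1 replicate alone there were 0 to 3. Overlap by replicate 2 fell from 1 to 0 when 50% of each peak had to be shared, and to 0 when summits had to lie within 100 bp. Overlap by replicate 1 stayed at 7 under both rules. With 50000 bp on each side, 0.18% of genes had at least as many IDR peaks as elt-3, and with 10000 bp 0.0851%. With the stronger part of the list it was 0.0701%, and with replicate 1 alone also 0.0701%. Replicate 2 alone gave no such share, since elt-3 then has 0 peaks. The pooled count was 16 with 10000 bp on each side, 35 with 50000 bp and 19 with the stronger part of the list. It stayed at 25 when any base of the peak in the window counted. A wider window holds more sequence by construction, and the cause of the other changes was not tested. No paired analysis was possible because there is 1 group. Without read counts, what depth limits at this locus cannot be given.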

Other observations

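Some of the weaker entries of the locus carried GATA sites. Of the 25 pooled entries of the window, 7 had a site within 50 bp of the summit (28%), close to the 27.5% of all pooled entries. Outside the IDR list these were the entries 16510 and 12933 bp upstream of elt-3, each with 2 sites, and those 290 bp past the end of elt-3 and in alg-1, each with 1. The entry 12933 bp upstream lay on the far side of mir-47 from the mir-47 peak and had a pooled signal of 24.2.

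The window of egl-27 had 6 IDR peaks with signals from 37.0 to 77.6, and each of them had at least 1 GATA site within 50 bp of the summit, against 38.9% of all IDR peaks. Around elt-3 it was 3 of 7. This difference was noticed after the values were seen and was not tested.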
